A study of Homo sapiens with 22 samples.

Results

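The genes described here make cholesterol and fatty acids or control their making. The list names 31 genes, and 30 of them had 1 matching gene ID each among the 48162 IDs of the count table. Matching went by gene symbol through a name table. ACACA, which encodes an acetyl-CoA carboxylase, had no match and has no value here. All 30 matched genes passed the filter on low counts, which kept 16694 genes in all. By role, 7 genes act in the mevalonate pathway, 11 act between farnesyl diphosphate and cholesterol, 5 regulate or transport sterols, and 8 make or modify fatty acids (7 with ACACA left out). They were abundant on the whole: the median over the 30 genes of the mean level was 80.6 CPM (counts scaled by library size), against 18.4 CPM over all genes tested, and 28 of the 30 averaged at least 10 CPM. FDPS and CYP51A1 were the 2 below.

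Cells build cholesterol from acetyl-CoA, first through mevalonate to isoprenoid units, then through squalene and lanosterol. Fatty acids start from the same acetyl-CoA, which is also the acetyl donor for histone acetyltransferases such as p300. Transcription of both sets of enzymes is driven by SREBP factors (encoded by SREBF1 and SREBF2), which SCAP escorts to the Golgi for cleavage when sterols are scarce, and which INSIG1 holds back in the endoplasmic reticulum when sterols are plentiful.

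RNA was sequenced from HEK293 cells, a human embryonic kidney line, that carried dox-inducible fusions of dCas9, a Cas9 without nuclease activity that binds DNA where a guide RNA directs it. The 6 groups were VPRP sgHBB (VPR joined to p300, with a guide against the beta-globin gene HBB), VPR sgHBB (the activators VP64, p65 and Rta), p300 sgHBB (an acetyltransferase), p300 D1399Y sgHBB (p300 with a substitution that impairs catalysis), VPRP non-target (VPRP with a guide without a target) and WT. WT cells held a guide but no fusion, and the labels do not say which guide. Each group had 2 libraries, described by the series as biological replicates. The protocol gives dox for 48 hours before sorting, on GFP and BFP for cells with a fusion and on BFP alone for WT, with the same number of cells sorted for each sample. WT therefore differed from the other groups in the fusion, in the sort and possibly in the guide, and these cannot be told apart. No guide against any of the lipid genes was used.

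Total counts ran from 14894558 to 17479523 a library. EP300, which encodes p300 and can take up reads of the p300 part of a fusion, averaged 375 CPM in VPRP sgHBB, 98.7 in VPR sgHBB, 1124 in p300 sgHBB, 195 in p300 D1399Y sgHBB, 1172 in VPRP non-target and 107 in WT. HBB averaged 1556 CPM in VPRP sgHBB and 79.1 to 187 CPM in the other sgHBB groups, and both VPRP non-target and both WT libraries held 0 counts. Summed over 7 matched genes of 9 picked as HEK293 markers, the level was 249 to 254 CPM in VPRP sgHBB, 322 to 351 in VPR sgHBB, 252 to 257 in p300 sgHBB, 419 to 422 in p300 D1399Y sgHBB, 269 to 281 in VPRP non-target and 410.4 to 432 in WT. The largest parts of the WT sum were VIM (mean 175 CPM) and NEFM (124 CPM). KRT8, on the same list, was lowest in WT, with a mean of 27.4 CPM against 49 to 88 CPM in the fusion groups. A list of 3 fibroblast markers summed to 23.5 to 63.9 CPM in the fusion groups and 15.6 to 18.2 CPM in WT, most of it COL1A1, with DCN at 0.507 CPM or less in every library. MAGEA10, a cancer-testis antigen gene, was at 0.261 CPM or less in both p300 groups and in VPRP sgHBB, at 24.9 to 32.1 CPM in VPR sgHBB and VPRP non-target, and at 9.34 and 9.57 CPM in WT. Whether the lines differed before induction was not tested. In bulk RNA, fewer cells expressing a gene and less of its RNA per cell cannot be told apart.

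Promoter windows could be read for 27 of the 31 genes, each running from 250 bases before the annotated start to 50 bases from it (RefSeq, GRCh38.p14). Of the 27 windows, 18 (66.7%) held a CCAAT box (CCAAT on either strand), against 36.6% of 12004 windows of tested genes. The sterol regulatory element was searched as TCACNCCAC on either strand. It was found in 1 of the 27 windows, against 1.06% of windows of tested genes, and that window belongs to SREBF2, where it starts 133 bases before the start. The GC box GGGCGG was in 25 of 27 windows (92.6%, against 70% of windows of tested genes), and the E-box CACGTG was in 4 of 27 (14.8%, against 9.86%). A letter match in a short window does not show that a factor binds there. No match says nothing of sites elsewhere, or of elements in the window that differ from the letters searched. The 6 windows printed belong to genes on which the results turn: TM7SF2 and MSMO1 were higher with every fusion than in WT, SREBF2, SCD and FADS1 were lower, and HMGCS1 separated p300 from its D1399Y mutant. Capitals mark CCAAT boxes on either strand (ATTGG where the box is on the other strand) and the SREBF2 element.
TM7SF2, chr11:65111622-65111921, plus strand: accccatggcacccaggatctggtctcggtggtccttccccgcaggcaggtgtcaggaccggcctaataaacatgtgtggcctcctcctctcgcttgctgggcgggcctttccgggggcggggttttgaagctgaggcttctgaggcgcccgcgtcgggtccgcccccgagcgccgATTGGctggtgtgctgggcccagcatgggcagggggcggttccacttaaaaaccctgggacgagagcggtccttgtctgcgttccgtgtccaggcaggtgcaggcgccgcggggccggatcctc
MSMO1, chr4:165327419-165327718, plus strand: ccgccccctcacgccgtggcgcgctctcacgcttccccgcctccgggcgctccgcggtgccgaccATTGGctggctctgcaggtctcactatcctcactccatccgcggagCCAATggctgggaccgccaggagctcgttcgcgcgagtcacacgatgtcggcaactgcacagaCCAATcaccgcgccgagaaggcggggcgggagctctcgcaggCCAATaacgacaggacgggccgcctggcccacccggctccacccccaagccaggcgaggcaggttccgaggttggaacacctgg
SREBF2, chr22:41832855-41833154, plus strand: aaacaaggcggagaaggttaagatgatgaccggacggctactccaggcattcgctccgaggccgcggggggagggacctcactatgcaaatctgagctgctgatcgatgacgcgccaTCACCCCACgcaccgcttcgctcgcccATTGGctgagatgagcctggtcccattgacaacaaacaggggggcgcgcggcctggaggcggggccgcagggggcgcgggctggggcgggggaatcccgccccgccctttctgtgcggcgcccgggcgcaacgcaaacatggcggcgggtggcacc
SCD, chr10:100346983-100347282, plus strand: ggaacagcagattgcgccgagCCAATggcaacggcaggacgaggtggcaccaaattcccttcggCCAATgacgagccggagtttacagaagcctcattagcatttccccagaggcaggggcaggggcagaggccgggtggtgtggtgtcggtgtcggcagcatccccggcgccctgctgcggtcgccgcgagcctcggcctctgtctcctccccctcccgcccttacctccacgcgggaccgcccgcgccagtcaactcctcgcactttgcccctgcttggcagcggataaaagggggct
FADS1, chr11:61816954-61817253, minus strand: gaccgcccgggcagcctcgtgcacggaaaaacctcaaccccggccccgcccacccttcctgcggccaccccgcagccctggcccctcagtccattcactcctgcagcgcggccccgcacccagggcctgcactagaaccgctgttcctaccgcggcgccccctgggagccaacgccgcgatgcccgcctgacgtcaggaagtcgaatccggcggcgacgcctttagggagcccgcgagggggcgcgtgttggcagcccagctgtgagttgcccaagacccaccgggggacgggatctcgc
HMGCS1, chr5:43313363-43313662, minus strand: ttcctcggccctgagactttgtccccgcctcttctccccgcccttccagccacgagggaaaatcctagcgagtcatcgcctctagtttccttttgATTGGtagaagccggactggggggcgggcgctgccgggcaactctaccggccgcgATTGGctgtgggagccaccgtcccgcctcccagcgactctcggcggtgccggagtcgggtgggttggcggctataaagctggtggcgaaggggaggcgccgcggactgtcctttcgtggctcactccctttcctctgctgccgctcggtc
MSMO1 held 4 CCAAT boxes, SCD and HMGCS1 held 2 each, TM7SF2 and SREBF2 held 1 each, and FADS1 held 0. Of the windows of genes higher than in WT, 1 held several boxes and 1 a single one. Of the lower genes SCD held several, SREBF2 held 1 and FADS1 held 0.

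Each fusion was first set against WT. The sterol branch did not move as a block: the late enzymes TM7SF2 and MSMO1 were up to 3.14-fold higher with a fusion. SQLE, which makes the first oxygenated sterol precursor, was 1.61- to 2.82-fold lower. Enzymes after SQLE fell as well: LSS was called lower in all 5 comparisons and DHCR7 in 4. On the fatty acid side nearly all called genes were lower, led by FADS1 and SCD. A gene was called at an adjusted p under 0.05 in the quasi-likelihood test of edgeR, adjusted by Benjamini-Hochberg over all 16694 genes. The 5 comparisons share the WT libraries, so their values are set side by side and not counted as independent evidence of each other.

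In VPRP sgHBB against WT, 21 of 30 genes were called (9 higher, 12 lower), where 59.1% of all genes tested were called (31.1% higher, 28% lower). In VPR sgHBB against WT, 16 of 30 were called (4 higher, 12 lower), against 25.3% of all genes (13.8% higher, 11.5% lower). For p300 sgHBB the count was 22 of 30 (9 higher, 13 lower), against 46.1% (24.5% higher, 21.6% lower). For p300 D1399Y sgHBB it was 16 of 30 (3 higher, 13 lower), against 30.2% (15.7% higher, 14.5% lower). For VPRP non-target it was 19 of 30 (10 higher, 9 lower), against 59.7% (31.2% higher, 28.5% lower). Abundant genes were called more often in general: among genes of at least 10 CPM the shares were 68.3%, 34.5%, 55.7%, 38.5% and 67.4% in the same order. As shares of the lipid genes the counts come to 70%, 53.3%, 73.3%, 53.3% and 63.3%, which lies close to those shares for both VPRP groups. The median log2 fold change of the lipid genes was -0.04, -0.15, -0.11, -0.09 and -0.05 in that order, against 0.00 to 0.04 over all genes tested. With WT replicate 2 left out, the count for VPR sgHBB was 10. The share of counts from mitochondrial genes was 2.14% to 3.44% in the fusion libraries and 1.88% and 2.1% in WT, and its part in these differences was not tested.

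**Figure D1:**
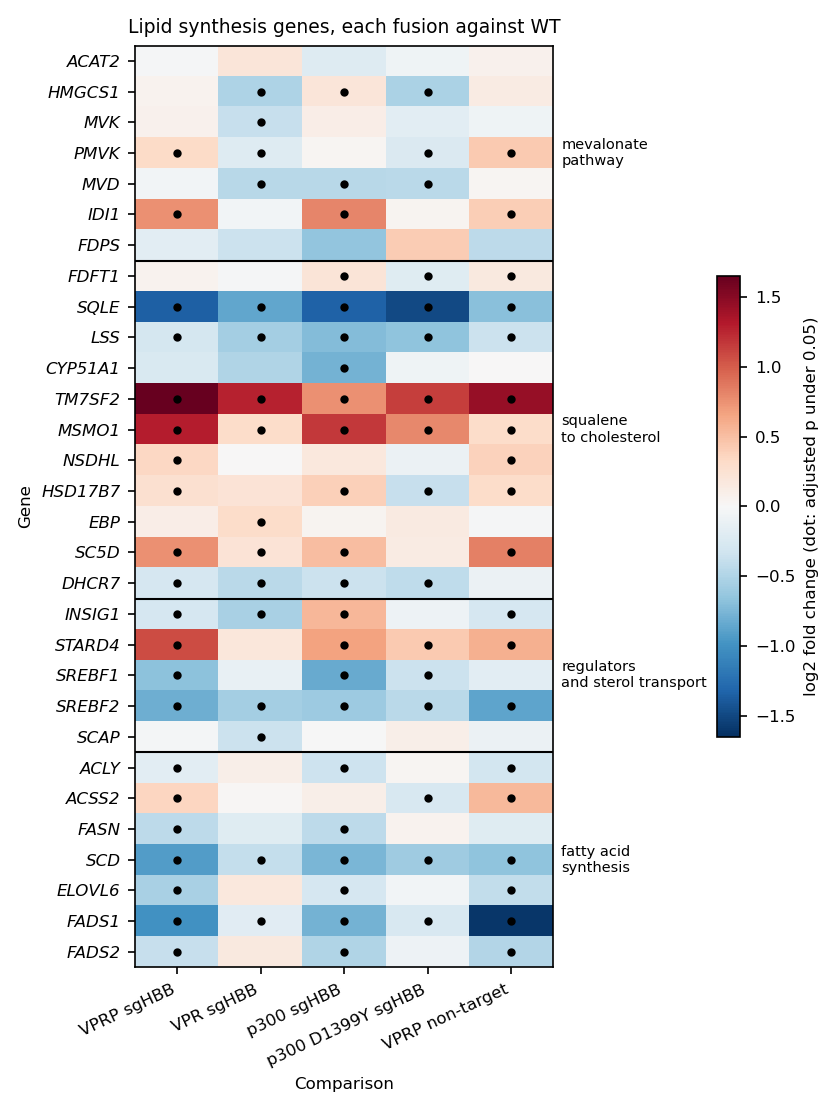
Log2 fold change of each of the 30 lipid genes (rows, grouped by role) in each fusion group over WT (columns), with red higher and blue lower in the fusion group. A dot marks adjusted p under 0.05. TM7SF2 and MSMO1 are red and SQLE, LSS, SREBF2, SCD and FADS1 are blue in all 5 columns, which share the WT libraries.

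Among enzymes after squalene, TM7SF2 had the largest log2 fold change over WT, in VPRP sgHBB. It encodes a sterol C14 reductase of the endoplasmic reticulum. The 2 libraries had 107 and 97.2 CPM in VPRP sgHBB, 83 and 74.3 in VPR sgHBB, 52.8 and 56.6 in p300 sgHBB, 73.2 and 70.1 in p300 D1399Y sgHBB, 88.7 and 87.9 in VPRP non-target, and 30.2 and 34.9 in WT. Every fusion library lay above both WT libraries, p300 sgHBB lay lowest among the fusions, and VPRP sgHBB lay highest. The log2 fold change over WT was 1.65 (SE 0.0889, edgeR adjusted p = 2.45e-17) in VPRP sgHBB, 1.27 in VPR sgHBB, 0.75 in p300 sgHBB, 1.14 in p300 D1399Y sgHBB and 1.44 in VPRP non-target, and all 5 were called.

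MSMO1, the sterol C4-methyl oxidase, had 78.4 and 74.4 CPM in VPRP sgHBB, 35 and 41.4 in VPR sgHBB, 73.9 and 66.2 in p300 sgHBB, 53.9 and 53.3 in p300 D1399Y sgHBB, 38 and 38.4 in VPRP non-target, and 31.5 and 30.5 in WT. VPRP sgHBB and p300 sgHBB stood far above WT and p300 D1399Y sgHBB in between, while VPR sgHBB and VPRP non-target lay only a little above WT. On the log2 scale MSMO1 exceeded WT by 1.30 (SE 0.0913, edgeR adjusted p = 2.89e-14) in VPRP sgHBB, 1.17 in p300 sgHBB, 0.79 in p300 D1399Y sgHBB, and 0.30 in both VPR sgHBB and VPRP non-target. The last 2 calls did not hold throughout: the edgeR adjusted p was 0.294 for VPR sgHBB without VPR sgHBB replicate 2, and 0.0671 and 0.125 without WT replicate 1 or 2, and for VPRP non-target it was 0.0551 without WT replicate 2 and 0.0575 without VPRP non-target replicate 2.

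SC5D, which puts in the C5 double bond late in the pathway, had 95.6 and 95 CPM in VPRP sgHBB, 62.8 and 69.2 in VPR sgHBB, 83.3 and 76.9 in p300 sgHBB, 60.4 and 62.2 in p300 D1399Y sgHBB, 106 and 93.7 in VPRP non-target, and 56.9 and 55.6 in WT. It rose with both VPRP groups (log2 fold change 0.76 with the HBB guide and 0.83 with the non-target guide) and with p300 (0.51, edgeR adjusted p = 4.23e-06). In p300 D1399Y sgHBB the difference of 0.13 was not called. The call for VPR sgHBB (0.23) was lost without VPR sgHBB replicate 2 (edgeR adjusted p = 0.265), without either WT replicate (0.111 and 0.18) and in 3 repeats without a library of another group (0.0548 to 0.0719).

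SQLE, squalene epoxidase and a control point of the pathway, went the other way. It had 144 and 135 CPM in VPRP sgHBB, 193 and 198 in VPR sgHBB, 139 and 142 in p300 sgHBB, 130 and 123 in p300 D1399Y sgHBB, 213 and 228 in VPRP non-target, and 355 and 356 in WT. Every fusion library lay below both WT libraries, and VPRP non-target came closest to them. SQLE's log2 fold change over WT was -1.35 in VPRP sgHBB, -0.86 in VPR sgHBB, -1.34 in p300 sgHBB, -1.49 in p300 D1399Y sgHBB (SE 0.0702, edgeR adjusted p = 3.33e-18) and -0.69 in VPRP non-target.

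LSS, which cyclises the SQLE product to lanosterol, had 130.4 and 125 CPM in VPRP sgHBB, 113 and 98.6 in VPR sgHBB, 85.7 and 104 in p300 sgHBB, 105 and 92.4 in p300 D1399Y sgHBB, 122 and 120.2 in VPRP non-target, and 150.5 and 161 in WT. It was lower in every fusion group, by 0.71 on the log2 scale in p300 sgHBB (log2 fold change -0.71, edgeR adjusted p = 1.62e-08) and by less in VPRP sgHBB (-0.29), where the call was lost without WT replicate 2 (edgeR adjusted p = 0.061). DHCR7, which reduces the last intermediate to cholesterol, had log2 fold changes of -0.28, -0.44, -0.36 and -0.42 in the 4 sgHBB groups, all called, and -0.10 in VPRP non-target, which was not. Smaller rises were called for NSDHL, a C4 decarboxylase, in VPRP sgHBB (0.34) and VPRP non-target (0.38), and the VPRP sgHBB call was lost without VPRP sgHBB replicate 1 (edgeR adjusted p = 0.0758).

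The other late enzymes differed from WT by less. HSD17B7, the 3-keto sterol reductase, ranged over log2 fold changes of -0.38 in p300 D1399Y sgHBB to 0.39 in p300 sgHBB. It was called higher in 3 groups (VPRP sgHBB, p300 sgHBB and VPRP non-target) and lower in 1 (p300 D1399Y sgHBB). All of these calls except that in p300 sgHBB were lost in some repeats with a library left out. In all, 2 named pseudogenes of HSD17B7 took 473 counts, so its counts may be split. EBP, the sterol isomerase, was called in VPR sgHBB alone (0.30), and that call was lost without WT replicate 2 (edgeR adjusted p = 0.077). FDFT1, squalene synthase, stayed between -0.20 and 0.21. CYP51A1, lanosterol demethylase, had 1100 counts over the 12 libraries and 3 named pseudogenes, and its call in p300 sgHBB (-0.78) was lost without p300 sgHBB replicate 2 (edgeR adjusted p = 0.163) and without WT replicate 1 (0.107).

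In the mevalonate pathway few genes differed from WT by much. IDI1, which isomerises the isoprenoid unit, had 76.7 and 77.1 CPM in VPRP sgHBB, 37.6 and 51.3 in VPR sgHBB, 83.7 and 74.8 in p300 sgHBB, 45.5 and 49 in p300 D1399Y sgHBB, 60.8 and 60.6 in VPRP non-target, and 47 and 44.2 in WT. Both VPRP groups and p300 sgHBB lay above WT, and the libraries of VPR sgHBB and p300 D1399Y sgHBB overlapped it. Its log2 fold change was 0.75 in VPRP sgHBB, 0.80 in p300 sgHBB (SE 0.0981, edgeR adjusted p = 3.5e-08) and 0.41 in VPRP non-target. IDI1 overlaps WDR37 and IDI2-AS1 on the other strand, and whether counting used the strand is not given in the sources used here.

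HMGCS1, the synthase that makes HMG-CoA, had 77.4 and 76.6 CPM in VPRP sgHBB, 51.7 and 52.5 in VPR sgHBB, 85.1 and 85 in p300 sgHBB, 50.1 and 53.3 in p300 D1399Y sgHBB, 82.8 and 80.4 in VPRP non-target, and 74.7 and 73.4 in WT. It fell in VPR sgHBB (log2 fold change -0.51, SE 0.0784, edgeR adjusted p = 1.08e-05) and in p300 D1399Y sgHBB (-0.52), and did not pass the test in either VPRP group. The rise in p300 sgHBB (0.20) was not stable, with edgeR adjusted p of 0.0991 and 0.095 when p300 sgHBB replicate 1 or 2 was left out, 0.081 and 0.126 when WT replicate 1 or 2 was left out, and 0.0595 without either VPRP non-target library.

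MVD, which makes isopentenyl diphosphate, was lower in VPR sgHBB (-0.46), p300 sgHBB (-0.46) and p300 D1399Y sgHBB (-0.44), and its log2 fold changes of -0.05 in VPRP sgHBB and 0.03 in VPRP non-target were not called. PMVK, phosphomevalonate kinase, rose in VPRP sgHBB (0.32) and VPRP non-target (0.43). Calls of lower PMVK in VPR sgHBB (-0.21) and p300 D1399Y sgHBB (-0.24) did not hold, the first being lost without any 1 of the 4 libraries compared (edgeR adjusted p = 0.0816 to 0.229) and the second without p300 D1399Y sgHBB replicate 1 (0.25) or WT replicate 2 (0.135). MVK, mevalonate kinase, was called in VPR sgHBB alone (-0.38), a call lost without VPR sgHBB replicate 2 (edgeR adjusted p = 0.34) or either WT replicate (0.126 and 0.0572). ACAT2, the cytosolic thiolase at the entry of the pathway, had 0 calls in these 5 comparisons, as did FDPS, farnesyl diphosphate synthase. FDPS had 712 counts in 12 libraries and has 10 named pseudogenes that could take its reads.

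SREBF2, which encodes the SREBP that drives the cholesterol genes, was lower in every fusion group. It had 183 and 181 CPM in VPRP sgHBB, 227 and 204 in VPR sgHBB, 212 and 207 in p300 sgHBB, 240.4 and 225 in p300 D1399Y sgHBB, 169.7 and 178 in VPRP non-target, and 331 and 304 in WT. The WT libraries were the highest 2 of the 12, and VPRP non-target the lowest. Its log2 fold change was -0.80 in VPRP sgHBB, -0.56 in VPR sgHBB, -0.60 in p300 sgHBB, -0.45 in p300 D1399Y sgHBB and -0.87 in VPRP non-target (SE 0.0711, edgeR adjusted p = 1.29e-12).

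SREBF1, the counterpart that drives fatty acid genes, had 60.6 and 64.6 CPM in VPRP sgHBB, 102 and 83.2 in VPR sgHBB, 54.9 and 58.3 in p300 sgHBB, 80.6 and 76.9 in p300 D1399Y sgHBB, 87.8 and 89.5 in VPRP non-target, and 98.5 and 102 in WT. It was lowest in VPRP sgHBB and p300 sgHBB, and VPR sgHBB overlapped WT. Its log2 fold changes were -0.68 in VPRP sgHBB, -0.83 in p300 sgHBB (SE 0.0851, edgeR adjusted p = 8.19e-10) and -0.35 in p300 D1399Y sgHBB, and it was not called in VPR sgHBB (-0.12) or VPRP non-target (-0.18).

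INSIG1 was called in opposite directions in different fusion groups. Its levels were 107 and 105 CPM in VPRP sgHBB, 89.2 and 88.7 in VPR sgHBB, 187 and 188 in p300 sgHBB, 119 and 124 in p300 D1399Y sgHBB, 102 and 109 in VPRP non-target, and 127 and 129.8 in WT. Only the p300 sgHBB libraries lay above WT. The log2 fold change was -0.28 in VPRP sgHBB, -0.53 in VPR sgHBB, 0.55 in p300 sgHBB (SE 0.0693, edgeR adjusted p = 5.79e-08), -0.08 in p300 D1399Y sgHBB, which was not called, and -0.28 in VPRP non-target.

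STARD4, which carries sterols between membranes, had 42.2 and 41.4 CPM in VPRP sgHBB, 22.7 and 22.4 in VPR sgHBB, 33.7 and 28.6 in p300 sgHBB, 27 and 26.1 in p300 D1399Y sgHBB, 29.3 and 30.3 in VPRP non-target, and 18.1 and 21.3 in WT. All fusion libraries exceeded WT, VPRP sgHBB the most. For STARD4 the log2 fold change was 1.08 in VPRP sgHBB (SE 0.107, edgeR adjusted p = 1.26e-10), 0.66 in p300 sgHBB, 0.43 in p300 D1399Y sgHBB and 0.59 in VPRP non-target, and 0.19 in VPR sgHBB did not pass. The p300 D1399Y sgHBB call was lost without WT replicate 1 (0.32, edgeR adjusted p = 0.0891). SCAP, the SREBP escort, was called in VPR sgHBB alone (-0.35).

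**Figure D2:**
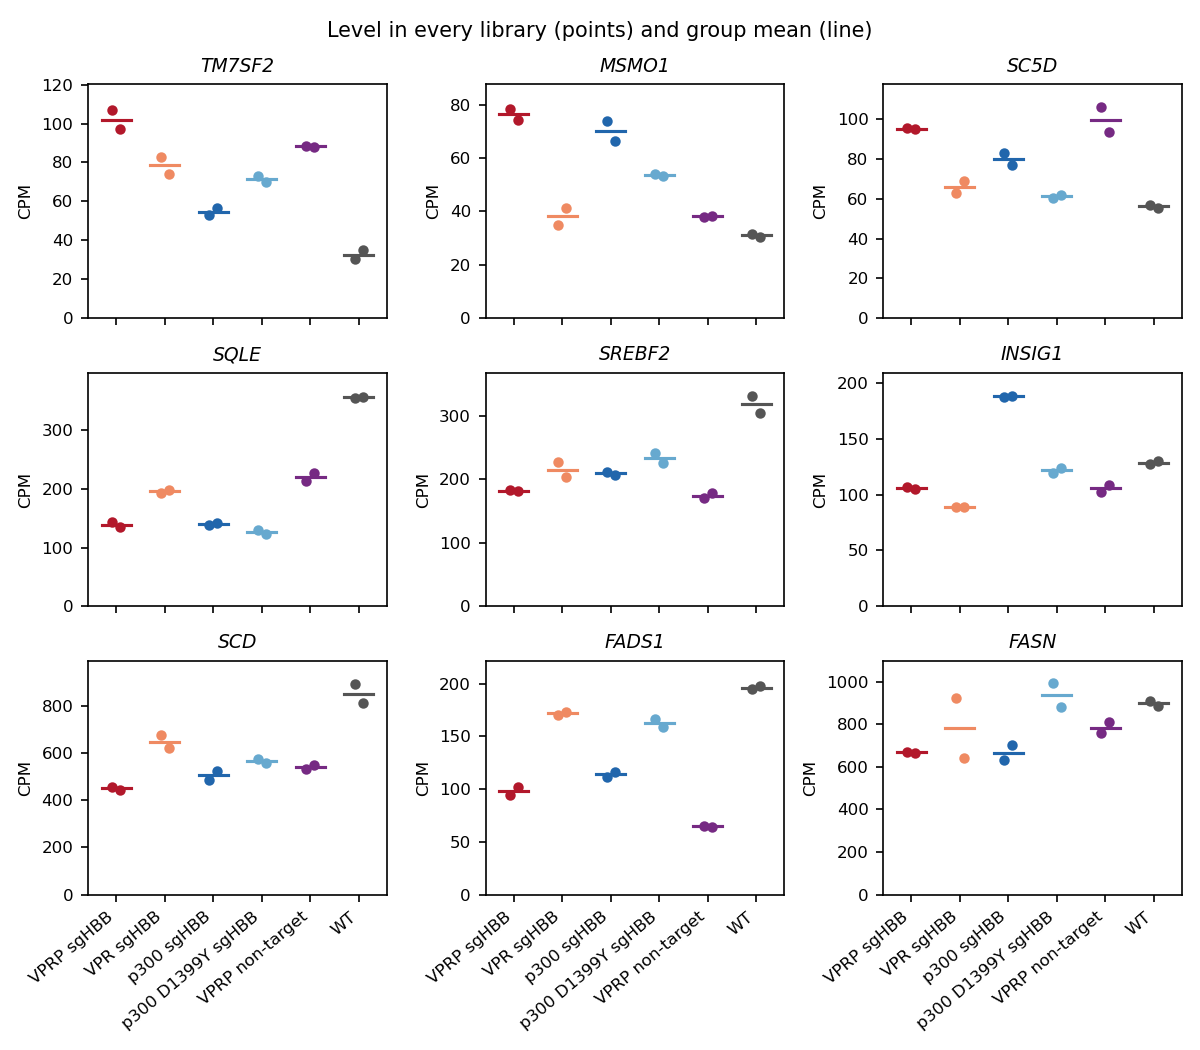
Level in CPM (linear axis from 0) of 9 lipid genes in each of the 12 libraries (points) with the mean of each group (line), with the VPRP sgHBB group at the left and WT at the right. TM7SF2, MSMO1 and SC5D are lowest in WT, SQLE, SREBF2, SCD and FADS1 are highest in WT, INSIG1 is highest in p300 sgHBB, and the 2 VPR sgHBB libraries lie apart for FASN.

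Fatty acid genes were mostly lower in the VPRP and p300 groups. Of 7 tested, 6 fell and 1 rose in VPRP sgHBB, 6 fell in p300 sgHBB, and 5 fell and 1 rose in VPRP non-target, while 2 fell in VPR sgHBB and 3 fell in p300 D1399Y sgHBB. Among all genes of at least 10 CPM, the share called lower was 38.3% in VPRP sgHBB, 30% in p300 sgHBB, 40.2% in VPRP non-target, 16.7% in VPR sgHBB and 19.7% in p300 D1399Y sgHBB. Summed over the 7 genes, the level was 1888 and 1847 CPM in VPRP sgHBB, 2595 and 2206 in VPR sgHBB, 1802 and 1950 in p300 sgHBB, 2479.5 and 2332 in p300 D1399Y sgHBB, 1958 and 2037 in VPRP non-target, and 2743 and 2631 in WT. The 3 groups with the lowest sums were also those with the lowest summed HEK293 markers given above, a sum that not every marker followed. The part of this in the result was not tested. The 7 mevalonate genes summed to 408 and 396 CPM in VPRP sgHBB, 292 and 308 in VPR sgHBB, 370.4 and 376 in p300 sgHBB, 287 and 307 in p300 D1399Y sgHBB, 398 and 405 in VPRP non-target, and 354 and 348 in WT. Both VPRP groups and p300 sgHBB lay above WT in this sum, and VPR sgHBB and p300 D1399Y sgHBB lay below it.

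SCD, the stearoyl-CoA desaturase that makes monounsaturated fatty acids, had 458 and 446 CPM in VPRP sgHBB, 676 and 623 in VPR sgHBB, 486 and 527 in p300 sgHBB, 577 and 558 in p300 D1399Y sgHBB, 534 and 550.2 in VPRP non-target, and 894 and 814 in WT. Every fusion library lay below both WT libraries. For SCD the log2 fold change ran from -0.92 in VPRP sgHBB (SE 0.0713, edgeR adjusted p = 3.62e-13) through -0.75 in p300 sgHBB, -0.66 in VPRP non-target and -0.59 in p300 D1399Y sgHBB to -0.39 in VPR sgHBB.

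FADS1, the delta-5 desaturase of polyunsaturated fatty acids, had 94.6 and 102 CPM in VPRP sgHBB, 170.3 and 173 in VPR sgHBB, 112 and 116 in p300 sgHBB, 167 and 159 in p300 D1399Y sgHBB, 64.9 and 64.5 in VPRP non-target, and 195 and 198 in WT. VPRP non-target was lowest, about 3.03-fold below WT (log2 fold change -1.60, SE 0.0725, edgeR adjusted p = 2.11e-19). VPRP sgHBB followed at -1.00 and p300 sgHBB at -0.78. The smaller differences of -0.19 in VPR sgHBB and -0.27 in p300 D1399Y sgHBB were called, but the first was lost without WT replicate 2 (edgeR adjusted p = 0.161), WT replicate 1 (0.11) or either VPR sgHBB replicate (0.0842 and 0.0631), and the second without p300 D1399Y sgHBB replicate 2 (0.0539). FADS1 overlaps FADS2, the delta-6 desaturase on the opposite strand, so their reads may not be fully separated. FADS2 fell in VPRP sgHBB (-0.38), p300 sgHBB (-0.49) and VPRP non-target (-0.48).

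FASN, the fatty acid synthase, had 669.9 and 667 CPM in VPRP sgHBB, 923 and 643 in VPR sgHBB, 631 and 703 in p300 sgHBB, 995 and 879 in p300 D1399Y sgHBB, 758 and 809 in VPRP non-target, and 909 and 886 in WT. It fell in VPRP sgHBB and in p300 sgHBB, by 0.43 on the log2 scale in both (log2 fold change -0.43, edgeR adjusted p = 0.000299 and 0.000414). The VPR sgHBB libraries straddled the WT level. ELOVL6, a fatty acid elongase, fell in VPRP sgHBB (-0.53) and VPRP non-target (-0.40), and in p300 sgHBB (-0.28) the call was lost without p300 sgHBB replicate 2 (edgeR adjusted p = 0.267) and without WT replicate 1 (0.0828). ACLY, which makes cytosolic acetyl-CoA from citrate, fell in p300 sgHBB (-0.34) and VPRP non-target (-0.30), and its call in VPRP sgHBB (-0.17) was lost without VPRP sgHBB replicate 2 (edgeR adjusted p = 0.114) or either WT replicate (0.123 and 0.0907).

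ACSS2, which makes acetyl-CoA from acetate, was the fatty acid gene that rose. It had 43.6 and 37.9 CPM in VPRP sgHBB, 31.2 and 33.4 in VPR sgHBB, 35.6 and 32.6 in p300 sgHBB, 25.8 and 27 in p300 D1399Y sgHBB, 45.3 and 46.5 in VPRP non-target, and 31.1 and 32.5 in WT. Both VPRP groups lay above WT and p300 D1399Y sgHBB below it. The log2 fold change was 0.53 in VPRP non-target (SE 0.096, edgeR adjusted p = 1.44e-05) and 0.36 in VPRP sgHBB, and the VPRP sgHBB difference was not called without VPRP sgHBB replicate 1 (0.25, edgeR adjusted p = 0.0619). The call of -0.27 in p300 D1399Y sgHBB was lost when any 1 of the 4 libraries compared was left out (edgeR adjusted p = 0.0817 to 0.2).

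The next comparison set p300 against p300 D1399Y, both with the HBB guide. Sterol enzymes and fatty acid enzymes parted here: of 18 sterol enzymes 8 were higher and 3 lower in p300 sgHBB, and of 7 fatty acid genes 1 was higher and 5 lower. In all, 19 of the 30 lipid genes were called (10 higher, 9 lower), against 30.4% of all genes tested (15.4% higher, 15% lower) and 38.2% of genes of at least 10 CPM. The median log2 fold change was 0.22 over the sterol enzymes and -0.37 over the fatty acid genes, against 0.01 over all genes. EP300 counts were 5.78-fold higher in p300 sgHBB (1116 and 1132 CPM) than in p300 D1399Y sgHBB (195 and 194 CPM). The summed HEK293 markers differed too, at 252 to 257 CPM in p300 sgHBB and 419 to 422 CPM in p300 D1399Y sgHBB. The loss of catalysis, a lower amount of the fusion RNA and a difference between the lines therefore cannot be told apart in this comparison.

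Of the sterol enzymes, HSD17B7 had 33.8 and 36 CPM in p300 sgHBB, against 21.4 and 19.6 CPM in p300 D1399Y sgHBB, with no overlap (log2 fold change 0.77, SE 0.105, edgeR adjusted p = 8.19e-07). IDI1 followed at 83.7 and 74.8 CPM in p300 sgHBB, against 45.5 and 49 CPM in p300 D1399Y sgHBB (0.75, SE 0.0975, edgeR adjusted p = 3.51e-07). HMGCS1 was at 85.1 and 85 CPM in p300 sgHBB, against 50.1 and 53.3 CPM in p300 D1399Y sgHBB (0.72, SE 0.0774, edgeR adjusted p = 8.22e-09). These 3 genes lay about 1.65- to 1.7-fold higher with the active fusion, and the libraries of the groups were apart for each.

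Smaller differences in the same direction were called for FDFT1 (0.41), MSMO1 (0.39), SC5D (0.39), PMVK (0.27) and NSDHL (0.27). The PMVK and NSDHL calls were lost without p300 sgHBB replicate 2 (edgeR adjusted p = 0.121 and 0.259) and without p300 D1399Y sgHBB replicate 1 (0.184 and 0.161). TM7SF2 ran against this group, with 52.8 and 56.6 CPM in p300 sgHBB, against 73.2 and 70.1 CPM in p300 D1399Y sgHBB (-0.39, edgeR adjusted p = 0.000654). FDPS (-1.08) and CYP51A1 (-0.72) were also lower, both with few counts. The FDPS call was lost without p300 D1399Y sgHBB replicate 2 (-0.84, edgeR adjusted p = 0.0558), and the CYP51A1 call without any 1 of p300 sgHBB replicate 1 (0.0556), p300 sgHBB replicate 2 (0.272) and p300 D1399Y sgHBB replicate 2 (0.798), or of the WT replicates (0.0529 and 0.0525), which enter the shared estimate of spread. SQLE, called lower than WT in both p300 groups, differed by 0.16 with an interval of 0.01 to 0.30 and was not called (edgeR adjusted p = 0.0912).

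Among the regulators, INSIG1 had 187 and 188 CPM in p300 sgHBB, against 119 and 124 CPM in p300 D1399Y sgHBB (log2 fold change 0.63, SE 0.0694, edgeR adjusted p = 1.55e-08). SREBF1 went the other way, at 54.9 and 58.3 CPM in p300 sgHBB, against 80.6 and 76.9 CPM in p300 D1399Y sgHBB (-0.48, SE 0.0858, edgeR adjusted p = 5.97e-05). SREBF2 (-0.15), SCAP (-0.11) and STARD4 (0.23) were not called.

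Most fatty acid genes were lower with the active fusion. FADS1 had 112 and 116 CPM in p300 sgHBB, against 167 and 159 CPM in p300 D1399Y sgHBB (log2 fold change -0.51, SE 0.0701, edgeR adjusted p = 8.9e-07). FASN had 631 and 703 CPM in p300 sgHBB, against 995 and 879 CPM in p300 D1399Y sgHBB (-0.49, SE 0.0965, edgeR adjusted p = 0.000187). The libraries of the groups did not overlap for either gene. ACLY had 433 and 461 CPM in p300 sgHBB, against 582 and 571 CPM in p300 D1399Y sgHBB (-0.37, edgeR adjusted p = 8.73e-05). FADS2 (-0.41) was not called without p300 sgHBB replicate 1 (log2 fold change -0.27). ELOVL6 (-0.24), at an adjusted p of 0.0492 in edgeR, was not called with any 1 of its 4 libraries left out except p300 sgHBB replicate 1 (log2 fold change -0.26 to -0.12 for the others). The ELOVL6 call was also lost with all libraries kept, under DESeq2 (adjusted p = 0.0919), RLE or upper-quartile factors. ACSS2 was the exception in direction, with 35.6 and 32.6 CPM in p300 sgHBB, against 25.8 and 27 CPM in p300 D1399Y sgHBB (0.37, edgeR adjusted p = 0.00461), a call lost without p300 sgHBB replicate 1 (0.0762) or p300 D1399Y sgHBB replicate 1 (0.0621).

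**Figure D3:**
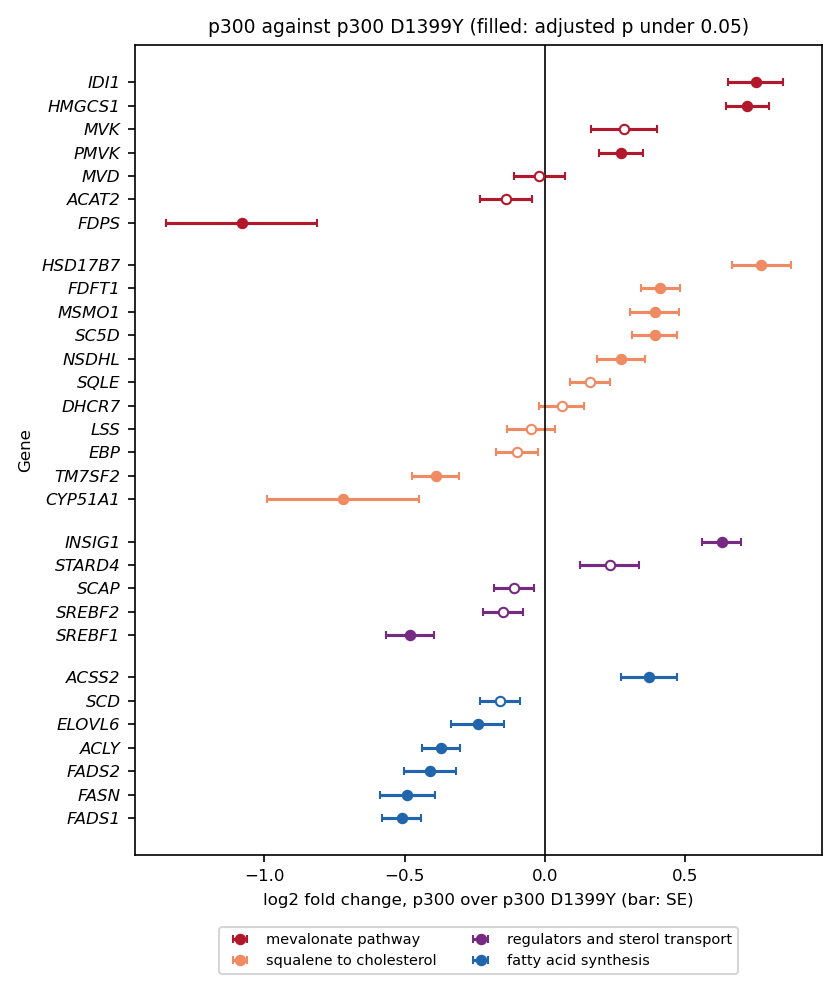
Log2 fold change of p300 sgHBB over p300 D1399Y sgHBB for each of the 30 lipid genes, with the SE as bars, grouped and coloured by role and ordered by size within a role. Filled points have adjusted p under 0.05. Most filled sterol enzymes lie right of 0 and the filled fatty acid genes other than ACSS2 lie left of it.

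VPRP sgHBB against VPR sgHBB compares VPR with and without p300 joined to it. MAGEA10 averaged 0.213 CPM in VPRP sgHBB and 25.9 CPM in VPR sgHBB, so the added p300 and a difference between the lines cannot be told apart. Most lipid genes differed: 25 of 30 were called (14 higher, 11 lower), against 49.8% of all genes tested (24.7% higher, 25.1% lower) and 58.7% of genes of at least 10 CPM. Of the sterol enzymes 10 were higher and 3 lower, of the 7 fatty acid genes 1 was higher and 6 were lower, and the median log2 fold change was 0.31 and -0.52 for these groups, against 0.00 over all genes. The VPR sgHBB libraries varied more than any other pair, with a variance 13.6 times the Poisson value, against 2.86 to 7.33 times in the other groups.

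MSMO1 had 78.4 and 74.4 CPM in VPRP sgHBB, against 35 and 41.4 CPM in VPR sgHBB (log2 fold change 1.00, SE 0.0894, edgeR adjusted p = 2.52e-11). STARD4 had 42.2 and 41.4 CPM in VPRP sgHBB, against 22.7 and 22.4 CPM in VPR sgHBB (0.89, SE 0.105, edgeR adjusted p = 1.3e-08). IDI1 had 76.7 and 77.1 CPM in VPRP sgHBB, against 37.6 and 51.3 CPM in VPR sgHBB (0.79, SE 0.0985, edgeR adjusted p = 3.27e-08). For these 3 genes every VPRP sgHBB library was above both VPR sgHBB libraries. HMGCS1 (0.56), PMVK (0.53) and SC5D (0.53) were higher as well, as were MVD (0.41), TM7SF2 (0.38), SCAP (0.33) and INSIG1 (0.25). Calls of higher MVK, NSDHL, LSS and ACSS2 were lost in at least 1 repeat with a library left out (edgeR adjusted p up to 0.0993 for MVK, 0.0933 for NSDHL, 0.115 for LSS and 0.0999 for ACSS2).

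FADS1 had 94.6 and 102 CPM in VPRP sgHBB, against 170.3 and 173 CPM in VPR sgHBB (log2 fold change -0.81, SE 0.0707, edgeR adjusted p = 1.54e-11). ELOVL6 had 35.6 and 32.9 CPM in VPRP sgHBB, against 52.1 and 58.6 CPM in VPR sgHBB (-0.69, SE 0.0957, edgeR adjusted p = 2.58e-07). SREBF1 had 60.6 and 64.6 CPM in VPRP sgHBB, against 102 and 83.2 CPM in VPR sgHBB (-0.57, SE 0.0847, edgeR adjusted p = 1.06e-06). The groups did not overlap for these 3 genes either. FADS2 (-0.54), SCD (-0.52), SQLE (-0.49) and ACLY (-0.27) were also lower. FASN was called at -0.23 with overlapping libraries (669.9 and 667 CPM in VPRP sgHBB, 923 and 643 CPM in VPR sgHBB), and without VPR sgHBB replicate 1 its log2 fold change was 0.06. The FASN call was also lost with all libraries kept, under DESeq2 (-0.21, adjusted p = 0.321), RLE or upper-quartile factors. The calls of EBP (-0.19), ACAT2 (-0.23) and SREBF2 (-0.24) were lost as well in repeats with a library left out (weakest log2 fold change -0.14, -0.07 and -0.17). With all libraries kept, EBP and ACAT2 were also lost under DESeq2 (adjusted p = 0.0669 and 0.1), RLE or upper-quartile factors. A fit of the compared groups alone lost EBP, ACAT2, SREBF2, FASN and ACLY (for ACLY -0.25, edgeR adjusted p = 0.0507).

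VPRP sgHBB against p300 sgHBB compares p300 with and without VPR joined to it. Here 10 of 30 lipid genes were called (7 higher, 3 lower). That share of 33.3% is near the background of 27.9% of all genes tested (14.3% higher, 13.7% lower) and 35.9% of genes of at least 10 CPM. The called genes were 5 of the 18 sterol enzymes, all 5 higher with VPRP, 3 of the regulators and transporters, and 2 of the 7 fatty acid genes. The count was 5 without VPRP sgHBB replicate 1, 5 without p300 sgHBB replicate 1 and 6 without p300 sgHBB replicate 2. EP300 averaged 375 CPM in VPRP sgHBB and 1124 CPM in p300 sgHBB, so the added VPR and the amount of fusion RNA cannot be told apart.

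TM7SF2 had 107 and 97.2 CPM in VPRP sgHBB, against 52.8 and 56.6 CPM in p300 sgHBB (log2 fold change 0.90, SE 0.0839, edgeR adjusted p = 2.72e-10). INSIG1 had 107 and 105 CPM in VPRP sgHBB, against 187 and 188 CPM in p300 sgHBB (-0.82, SE 0.0697, edgeR adjusted p = 2.84e-11). LSS had 130.4 and 125 CPM in VPRP sgHBB, against 85.7 and 104 CPM in p300 sgHBB (0.42, SE 0.0847, edgeR adjusted p = 0.000236). The libraries of the groups were apart for all 3. STARD4 (0.43) lost its call without p300 sgHBB replicate 2 (edgeR adjusted p = 0.0705), MVD (0.41) without p300 sgHBB replicate 1 (0.0525) and PMVK (0.29) without VPRP sgHBB replicate 1 (0.0662) or p300 sgHBB replicate 1 (0.0912). The calls of SC5D (0.25), ACSS2 (0.25), FADS1 (-0.22) and SREBF2 (-0.20) each rested on libraries of both groups, with edgeR adjusted p up to 0.181, 0.377, 0.158 and 0.157 when 1 was left out. SQLE (-0.02, interval -0.16 to 0.13) and FASN (0.00, interval -0.19 to 0.20) were not called.

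The last comparison, VPRP sgHBB against VPRP non-target, keeps the fusion and changes the guide. It gave the fewest calls among the lipid genes, 8 of 30 (5 higher, 3 lower), which is near the 29.3% of all genes tested (14.9% higher, 14.4% lower) and below the 35.6% of genes of at least 10 CPM. EP300 averaged 375 CPM in VPRP sgHBB and 1172 CPM in VPRP non-target, and MAGEA10 averaged 0.213 CPM and 32 CPM in the same order. The guide, the amount of fusion RNA and a difference between the lines therefore cannot be told apart.

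MSMO1 stood out, with 78.4 and 74.4 CPM in VPRP sgHBB, against 38 and 38.4 CPM in VPRP non-target (log2 fold change 1.00, SE 0.0884, edgeR adjusted p = 8.38e-11). FADS1 had 94.6 and 102 CPM in VPRP sgHBB, against 64.9 and 64.5 CPM in VPRP non-target (0.60, SE 0.0733, edgeR adjusted p = 8.16e-08). STARD4 had 42.2 and 41.4 CPM in VPRP sgHBB, against 29.3 and 30.3 CPM in VPRP non-target (0.49, SE 0.101, edgeR adjusted p = 0.000326). IDI1 was higher too (0.34), without overlap between the groups in any of these 4 genes. On the other side, SQLE had 144 and 135 CPM in VPRP sgHBB, against 213 and 228 CPM in VPRP non-target (-0.66, SE 0.0694, edgeR adjusted p = 3.66e-09). SREBF1 had 60.6 and 64.6 CPM in VPRP sgHBB, against 87.8 and 89.5 CPM in VPRP non-target (-0.50, SE 0.0844, edgeR adjusted p = 2.12e-05). SCD (-0.26) lost its call without VPRP non-target replicate 2 (edgeR adjusted p = 0.0783), and TM7SF2 (0.21) without VPRP sgHBB replicate 1 (0.342), without either VPRP non-target replicate (0.122 and 0.163) and in several other repeats.

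**Figure D4:**
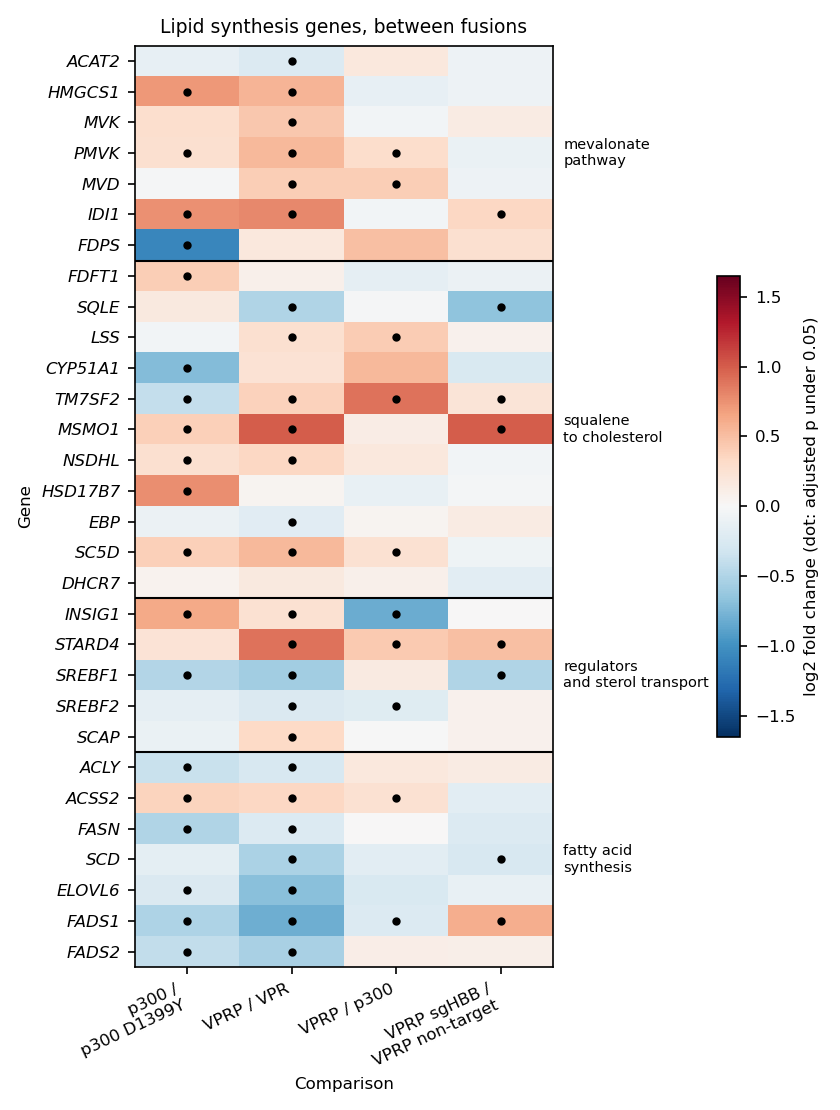
Log2 fold change of each of the 30 lipid genes (rows, grouped by role) in 4 comparisons between fusions (columns), with red higher and blue lower in the group named first. A dot marks adjusted p under 0.05. MSMO1 is deep red in VPRP / VPR and in VPRP sgHBB / VPRP non-target, INSIG1 is red in p300 / p300 D1399Y and blue in VPRP / p300, and the fatty acid genes are mostly blue in the first 2 columns. The columns that start with VPRP share the VPRP sgHBB libraries, and p300 / p300 D1399Y and VPRP / p300 share the p300 sgHBB libraries.

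Neighbouring lipid pathways were read from 5 further gene lists. Their shares of called genes in VPRP sgHBB against WT, 70.8% to 76.9%, stood against 59.1% of all genes tested and 68.3% of genes of at least 10 CPM, and so lay near the background of abundant genes. In p300 sgHBB against p300 D1399Y sgHBB their shares ran from 16.7% to 46.2%, on both sides of the 30.4% of all genes and 38.2% of genes of at least 10 CPM. Among 18 genes of acetyl-CoA supply and use, 13 (72.2%) were called in VPRP sgHBB against WT (7 higher, 6 lower), with ACSS1, the mitochondrial acetyl-CoA synthetase, at 25 CPM in VPRP sgHBB and 56.4 CPM in WT (log2 fold change -1.18, edgeR adjusted p = 7.37e-12). CS, citrate synthase, averaged 295 CPM in VPRP sgHBB and 514 CPM in WT (-0.80, edgeR adjusted p = 3.02e-12). MPC2, a subunit of the mitochondrial pyruvate carrier, averaged 50.7 CPM in VPRP sgHBB and 28.7 CPM in WT (0.82). In p300 sgHBB against p300 D1399Y sgHBB, 5 of the 18 (27.8%, below the 30.4% of all genes) were called (4 higher, 1 lower), with MPC1, the partner subunit, at 104 CPM in p300 sgHBB and 59.2 CPM in p300 D1399Y sgHBB (0.82, edgeR adjusted p = 3.71e-09).

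Of 13 genes of sterol uptake, storage and efflux, 10 (76.9%, against 59.1% of all genes) were called in VPRP sgHBB against WT (4 higher, 6 lower). SOAT1, which esterifies cholesterol for storage, averaged 160.2 CPM in VPRP sgHBB and 81.5 CPM in WT (log2 fold change 0.97, edgeR adjusted p = 1.76e-13). ABCG1, a sterol exporter, averaged 12.8 CPM in VPRP sgHBB and 23.7 CPM in WT (-0.89). In p300 sgHBB ABCG1 averaged 9.15 CPM (-1.37 against WT, edgeR adjusted p = 2.89e-10). In p300 sgHBB against p300 D1399Y sgHBB, 6 of the 13 (46.2%, against 30.4% of all genes) were called (2 higher, 4 lower), among them ABCA1, the cholesterol exporter of high-density lipoprotein, at 3.93 CPM in p300 sgHBB and 6.49 CPM in p300 D1399Y sgHBB (-0.73).

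Among 24 tested genes of other fatty acid synthesis and glycerolipid steps, 17 (70.8%, against 59.1% of all genes) were called in VPRP sgHBB against WT (11 higher, 6 lower). ACSL1, a long-chain acyl-CoA synthetase, averaged 66.8 CPM in VPRP sgHBB and 21.5 CPM in WT (log2 fold change 1.64, edgeR adjusted p = 1.96e-16), and ELOVL4, an elongase of very long chains, averaged 77.1 CPM in VPRP sgHBB and 39.7 CPM in WT (0.96). SCD5, the second human stearoyl-CoA desaturase, averaged 43 CPM in VPR sgHBB and 21.1 CPM in WT (1.02, edgeR adjusted p = 2.45e-09), and 46 CPM in p300 D1399Y sgHBB (1.12 against WT), while SCD itself was lower in those groups. In p300 sgHBB against p300 D1399Y sgHBB, 6 of 24 (25%, below the 30.4% of all genes) were called (5 higher, 1 lower), with DGAT2, the last enzyme of triglyceride synthesis, at 20.7 CPM in p300 sgHBB and 10.7 CPM in p300 D1399Y sgHBB (0.94, edgeR adjusted p = 8.31e-07) and DGAT1 at 57.9 CPM in p300 sgHBB and 36.5 CPM in p300 D1399Y sgHBB (0.66).

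Of 13 SREBP pathway partners, 10 (76.9%, against 59.1% of all genes) were called in VPRP sgHBB against WT (5 higher, 5 lower). FBXW7, the ubiquitin ligase subunit that marks nuclear SREBP for degradation, averaged 26.5 CPM in VPRP sgHBB and 13.3 CPM in WT (log2 fold change 1.00, edgeR adjusted p = 1.83e-08), and it was also higher in p300 sgHBB (0.83) and p300 D1399Y sgHBB (1.10) against the same WT libraries. FBXW7 lay nearer the WT level in VPR sgHBB (13.4 CPM) and in VPRP non-target (15.9 CPM). NPC2, which hands cholesterol on in lysosomes, averaged 143 CPM in VPRP sgHBB and 78 CPM in WT (0.88). Of 12 tested partners of sterol synthesis and the isoprenoid branch, 9 (75%, against 59.1% of all genes) were called in VPRP sgHBB against WT (4 higher, 5 lower), with LBR, which like TM7SF2 reduces the sterol C14 bond, at 324 CPM in VPRP sgHBB and 430.2 CPM in WT (-0.41, edgeR adjusted p = 2.24e-06). In p300 sgHBB against p300 D1399Y sgHBB the counts were 5 of 13 (38.5%) for the SREBP partners and 2 of 12 (16.7%) for the sterol and isoprenoid partners, against 30.4% of all genes.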

How the data were processed

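The deposited table holds whole-number read counts per gene, not normalized, which the authors made; the submitters' processing notes name STAR 2.5, HTSeq 0.6.1 and the build hg19, without roles. Neither the annotation release nor the strand setting is given in the sources used here. Gene symbols came from a name table, which matched 33626 of 48162 IDs. The H3K27ac ChIP samples of the series were not analysed here. Low-count genes were removed by edgeR's filterByExpr (count at least 10, total at least 15) and scaled by TMM factors, and CPM values use these factors. All 12 libraries entered 1 fit, with 6 group means, in edgeR 4.0.16 (limma 3.58.1, R 4.3.3), and 9 comparisons were tested by quasi-likelihood with Benjamini-Hochberg adjustment over 16694 genes, called at 0.05. A log2 fold change divided by the root of its quasi-F gives the SE, and intervals are at 95%. The p-values rest on a spread estimated over all 12 libraries, part of which may be technical. Reads carry no molecular identifiers. Libraries varied by more than counting error (2.86 to 13.6 times the Poisson variance).

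All 31 listed genes are named. The rule gave library values and test statistics to the 4 called members with the largest change each way per comparison. From each further list it allowed up to 4 genes with the largest absolute change among those called in a comparison. The list genes named are not always those. Between VPRP sgHBB and WT, ACSL5 (0.75 and 0.131 CPM) and CYP46A1 (1.61 and 0.295 CPM) changed more than the genes named from their lists. Library values and test statistics of other members (among them TM7SF2, SREBF1, ACLY and ACSS2 in p300 sgHBB against p300 D1399Y sgHBB) were added after they had been seen. The genes and the lists were chosen with earlier results of these data known. The alternatives tried were RLE or upper-quartile factors, DESeq2 1.42.0, a filter at 1 CPM in 2 or more libraries or none, separate fits of the compared groups, a replicate block and leaving out each library. Promoters were searched as letters only. The test steps were checked on simulated counts. Figures were drawn with matplotlib 3.10.9.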

Additional observations from a re-analysis of the deposited data

How the results depend on the processing

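Of 156 calls of lipid genes over the 9 comparisons, 107 held under all 19 alternatives and 49 were lost under at least 1. Losses named above for single genes are mostly those from leaving out a library. Calls lost under DESeq2 with all libraries kept included SC5D in VPR sgHBB against WT and HMGCS1 in p300 sgHBB against WT. They also included ACSS2 in p300 D1399Y sgHBB against WT and CYP51A1 in p300 sgHBB against p300 D1399Y sgHBB. The only sign change was FASN in VPRP sgHBB against VPR sgHBB, whose log2 fold change ran from -0.46 without VPR sgHBB replicate 2 to 0.06 without VPR sgHBB replicate 1. The count of lipid genes called moved by over 1.5 times in 2 comparisons, and only where a library was left out. For VPR sgHBB against WT it ran from 10 to 18, the lowest without WT replicate 2. For VPRP sgHBB against p300 sgHBB it ran from 5 to 13, with 5 without VPRP sgHBB replicate 1, 5 without p300 sgHBB replicate 1 and 6 without p300 sgHBB replicate 2. Counts over all genes fell by more than 1.5 times in some of these repeats, to 2785 without VPR sgHBB replicate 2, and to 2735 and 2560 without WT replicate 1 or 2, in VPR sgHBB against WT. They fell to 3199 without p300 sgHBB replicate 1 and 3235 without p300 D1399Y sgHBB replicate 1 in p300 sgHBB against p300 D1399Y sgHBB. They fell to 3183 and 3213 without VPRP non-target replicate 1 and 2 in VPRP sgHBB against VPRP non-target, and to 3068 without p300 sgHBB replicate 1 in VPRP sgHBB against p300 sgHBB. Leaving out a library of a compared group leaves a lone library there, assumed to vary like the other groups. A replicate block gave 21, 15, 22, 16 and 18 lipid genes against WT in the order of the report, 18 for p300 sgHBB against p300 D1399Y sgHBB, 24 for VPRP sgHBB against VPR sgHBB, 9 against p300 sgHBB and 7 against VPRP non-target. No pairing by replicate number was seen: same-numbered libraries correlated between -0.08 and 0.09 in their deviations over 15 pairs of groups. All tested genes entered, those with few counts included, so a shared batch could go unseen. With 2 libraries a group, small differences were often not stable, and FDPS and CYP51A1 had too few counts to place.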
